A study of Mus musculus with 11 samples.

Results

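Amino acid transporter transcripts were measured in conventional type 1 dendritic cells (cDC1s), the dendritic cell subset specialized in cross-presentation, sorted from B16 melanoma tumors. The 10 genes described here were listed as plasma membrane amino acid transporters or their subunits: Slc1a5, Slc1a4, Slc3a2, Slc7a5, Slc7a6, Slc7a11, Slc7a1, Slc38a1, Slc38a2 and Slc38a10. They are 10 of 24421 genes in the count table and all 10 were among the 10951 genes tested. They were chosen by name, with the Slc1a5 pattern in these 11 pools and the values of transporters known as targets of the transcription factor ATF4 already seen, so their values are given as a description and without p-values. All mice carried floxed Xbp1 on a C57BL/6 background, were of both sexes and were 6 to 14 weeks old, and each pool held cDC1s of 2 to 4 tumor-bearing mice. The control group had 4 Cre-negative pools, replicates 1 to 3 from XBP1 fl/fl mice and replicate 4 from XBP1 fl/fl IRE1 fl/fl mice. The XBP1ΔDC group had 4 pools from XBP1 fl/fl mice with CD11c-Cre, which removes the transcription factor XBP1. The XBP1ΔDCIRE1truncDC group had 3 pools from XBP1 fl/fl IRE1 fl/fl mice with CD11c-Cre, which in addition truncates IRE1, the product of Ern1, so that its RNase domain is lost. The CD11c (Itgax) promoter drives Cre in all CD11c-expressing cells, so neither deletion was restricted to cDC1s.

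Amino acid transporters of the plasma membrane import the building blocks of protein synthesis and exchange amino acids against each other. Slc1a5 and Slc1a4 are sodium-dependent exchangers of small neutral amino acids, and Slc38a1 and Slc38a2 import glutamine and other neutral amino acids with sodium. Slc7a1 imports arginine and lysine, and the light chains Slc7a5, Slc7a6 and Slc7a11 reach the membrane bound to the heavy chain Slc3a2 (CD98). When amino acids are short or the endoplasmic reticulum is stressed, ATF4 is known to raise Slc7a11, Slc3a2, Slc7a5, Slc1a4, Slc7a1 and Slc38a2 together with amino acid synthesis enzymes and tRNA synthetases, and Slc1a5 has also been listed among its targets in other cells. IRE1 is a stress sensor of the same organelle whose RNase splices the Xbp1 mRNA and, in XBP1-deficient dendritic cells, is known to cleave other mRNAs, a process called regulated IRE1-dependent decay (RIDD).

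Total counts ranged from 21089065 to 26843486 per pool. Levels are given as CPM, read counts scaled to the normalized size of each library. Xbp1 lay at 244.4 to 270.8 CPM in control pools, 130.1 to 165.3 CPM in XBP1ΔDC pools and 179.0 to 236.3 CPM in XBP1ΔDCIRE1truncDC pools, and Ern1 at 9.82 to 19.0, 9.74 to 15.6 and 17.0 to 25.99 CPM in these groups. Gene-level counts include exons outside the deleted parts of Xbp1 and Ern1, so these levels do not measure the deletions. All 11 of the cDC1 markers were detected. Their summed level was 13110 to 14380 CPM in control, 11010 to 12370 CPM in XBP1ΔDC and 12020 to 12840 CPM in XBP1ΔDCIRE1truncDC pools, while the 9 macrophage and monocyte markers summed to 441.3 to 1174 CPM over all pools. The 8 melanoma markers summed to 8.96 to 61.4 CPM in control, 12.2 to 65.7 CPM in XBP1ΔDC and 8.74 to 11.02 CPM in XBP1ΔDCIRE1truncDC pools. The 4 plasmacytoid dendritic cell markers summed to 17.1 to 23.0 CPM in control, above 9.24 to 15.4 CPM in XBP1ΔDC and 2.89 to 12.47 CPM in XBP1ΔDCIRE1truncDC pools, and the part of these markers in the results was not tested. In bulk samples, fewer cells of a type and less RNA per cell cannot be told apart.

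Slc1a5, which encodes the glutamine, serine and alanine exchanger ASCT2, stood at 0.552 of the control level in XBP1ΔDC cDC1s and at 1.06 of it in XBP1ΔDCIRE1truncDC cDC1s. The 4 control pools had 203.1, 208.3, 183.8 and 184.5 CPM. Slc1a5 was 109.1, 111.3, 100.9 and 109.1 CPM in the 4 XBP1ΔDC pools, and 215.0, 205.5 and 201.2 CPM in the 3 XBP1ΔDCIRE1truncDC pools. The XBP1ΔDC pools all lay below every other pool, whereas control and XBP1ΔDCIRE1truncDC pools overlapped. The log2 fold change was -0.86 ± 0.069 (SE, n = 4 and 4) in XBP1ΔDC against control, 0.95 ± 0.073 (n = 3 and 4) in XBP1ΔDCIRE1truncDC against XBP1ΔDC, and 0.088 ± 0.074 (n = 3 and 4) in XBP1ΔDCIRE1truncDC against control. The coefficient of variation within groups was 3.39 to 6.48%, and Slc1a5 rested on 2409 to 5627 reads per pool. The cDC1 marker sum was lower in every XBP1ΔDC pool and in every XBP1ΔDCIRE1truncDC pool than in every control pool, and its part in the Slc1a5 level was not tested. Across the other analysis settings and with each pool left out in turn, the 3 differences stayed within -0.88 to -0.82, 0.91 to 0.97 and 0.061 to 0.12.

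**Figure D1:**
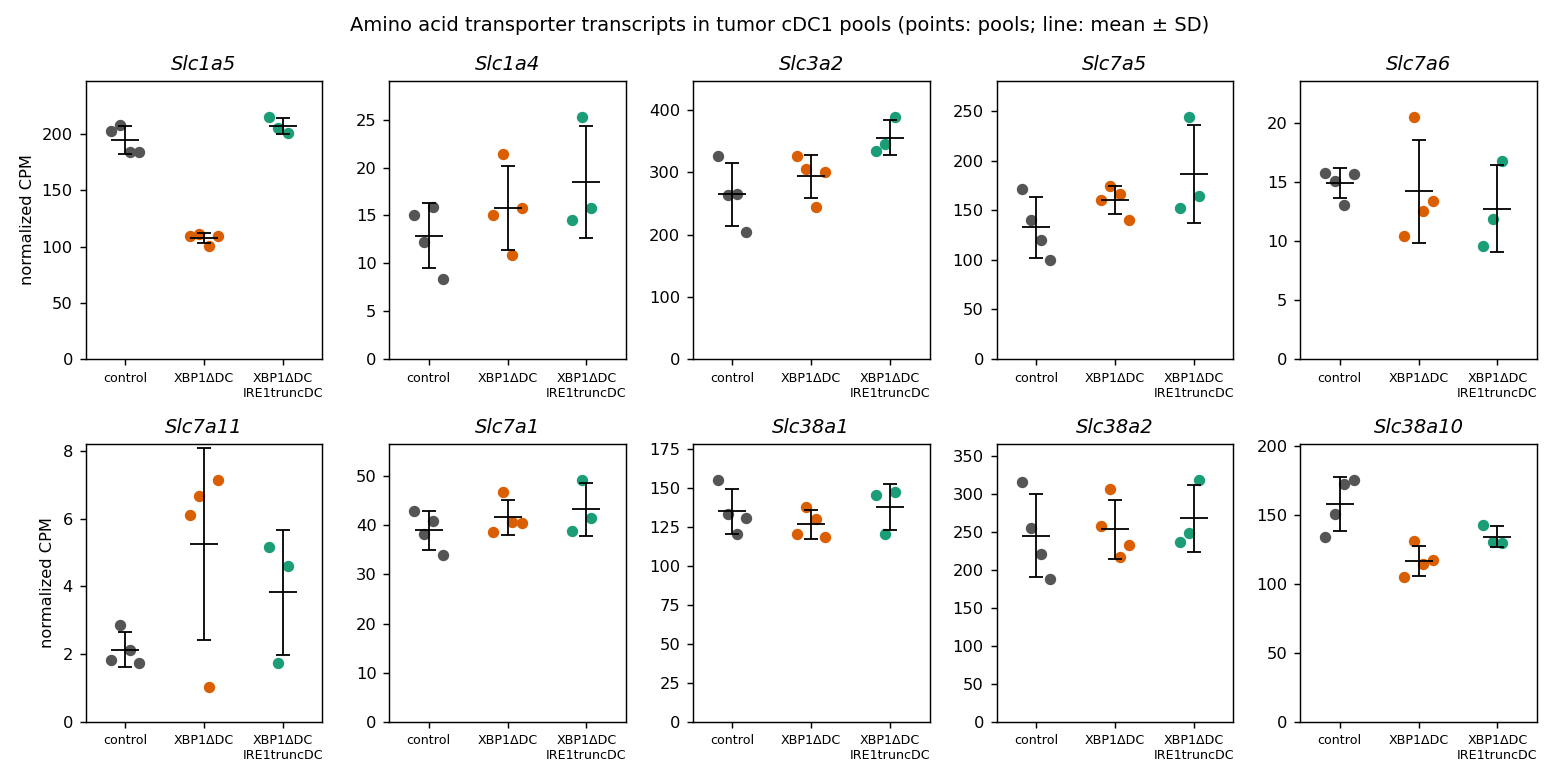
Normalized CPM (vertical axes, each from 0) of the 10 transporters in each pool (points), by genotype (horizontal axes), with the mean and SD of each group. Slc1a5 in the 4 XBP1ΔDC pools sits at 100.9 to 111.3 CPM, below all other pools, while most other transporters overlap between genotypes.

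Slc1a5 was also set against the other transporters in the same pool. These ratios restate the Slc1a5 values for which the gene was chosen and are a description only. Per kilobase of transcript, Slc1a5 made up 16.9 to 21.2% of the summed level of the 10 transporters in control pools, 10.4 to 11.4% in XBP1ΔDC pools and 15.7 to 18.6% in XBP1ΔDCIRE1truncDC pools. The ratio of Slc1a5 to Slc3a2 per kilobase was 0.409, 0.520, 0.457 and 0.597 in control, 0.220, 0.240, 0.271 and 0.239 in XBP1ΔDC and 0.424, 0.391 and 0.341 in XBP1ΔDCIRE1truncDC. In this ratio XBP1ΔDC pools lay below all others, and the XBP1ΔDCIRE1truncDC pools overlapped the control pools only with the highest of their 3 values. The ratio to Slc38a2, another glutamine carrier, was 1.09 to 1.66 in control, 0.613 to 0.792 in XBP1ΔDC and 1.07 to 1.53 in XBP1ΔDCIRE1truncDC.

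Slc1a5 (ENSMUSG00000001918.17) lies on the plus strand at chr7:16781340-16798274 (GRCm38). Ap2s1, a subunit of the AP-2 endocytic adaptor that lies 32046 bases away, was looked at for the same pattern. Its log2 fold change was 0.011 ± 0.071 in XBP1ΔDC against control (adjusted p = 0.99, edgeR), 0.019 ± 0.077 in XBP1ΔDCIRE1truncDC against control (adjusted p = 0.96) and 0.0082 ± 0.077 between the mutants (adjusted p = 0.9997), and its pools overlapped in all 3 comparisons.

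Over the 11 pools, the genes closest to Slc1a5 in profile were Pkd1, Bloc1s1, Evi2a, 2310067B10Rik and Fam134c. Closeness was the root-mean-square difference of mean-centred log2 CPM, which was 0.147, 0.157, 0.168, 0.178 and 0.185 for these 5 genes, against a median of 0.490 over 10950 genes. Bloc1s1, a subunit of the BLOC-1 complex of lysosome-related organelles and a known substrate of the IRE1 RNase, averaged 34.7, 18.9 and 37.4 CPM in control, XBP1ΔDC and XBP1ΔDCIRE1truncDC pools. Fam134c, a reticulophagy receptor, averaged 38.0, 17.2 and 36.2 CPM. In the same order of groups, Pkd1 averaged 72.13, 44.13 and 70.98 CPM, Evi2a 178.5, 112.8 and 177.4 CPM, and 2310067B10Rik 49.99, 31.17 and 51.98 CPM. The ranking rests on the Slc1a5 values for which the gene was chosen, so it is a description only. Whether IRE1 cleaves the Slc1a5 mRNA was not tested. Among the transporters, Slc38a10 came nearest to Slc1a5, at rank 141 (0.335), followed by Slc38a1 at rank 783, and Slc7a11 was farthest, at rank 10559 (1.09).

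The mRNA was searched for the hexamer CTGCAG, a core found in known IRE1 cleavage sites, in 1 transcript per gene of the GENCODE vM21 annotation. Other forms of the site and the folding of the RNA were not considered, so a match is not a measured cleavage site. The sequence below is shown because Slc1a5, the transporter that was low in XBP1ΔDC pools, held a single match, in the coding part of exon 8 at chr7:16796065-16796070 (GRCm38, plus strand). For comparison, 1 coding match each of Slc7a5 (exon 3, chr8:121888408-121888413, minus strand) and Slc38a10 (exon 9, chr11:120129288-120129293, minus strand) is printed. Capitals mark the hexamer, and the strand is that of the mRNA, 5′ to 3′:
Slc1a5: cggcagggatccCTGCAGggggcgtcctca
Slc7a5: gatgcgtccaacCTGCAGcagaagttgtcc
Slc38a10: atggaacctttgCTGCAGgaggctacatgc
Slc1a5 had 1 match in 2764 bases (0.362 per kb), Slc38a10 had 7 (1.53 per kb), Slc7a5 had 6 (1.71 per kb) and Slc7a6 had 0. At least 1 match was present in 85.9% of 10322 tested genes with a gene model, with a median of 2 matches and 0.779 per kb, and in 87.8% of the 2572 genes within 20% of the length of Slc1a5. No transporter of the 10 was among the 79 RIDD targets or the 60 XBP1 targets listed by the study.

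Slc38a10 is a less studied SLC38 carrier, and whether its protein lies at the plasma membrane was not measured. It was the only other transporter whose XBP1ΔDC pools all lay below the control pools. It was at 133.6, 150.4, 172.2 and 175.1 CPM in control, 104.9, 130.9, 114.1 and 116.9 CPM in XBP1ΔDC and 142.6, 130.3 and 129.5 CPM in XBP1ΔDCIRE1truncDC. Its XBP1ΔDCIRE1truncDC pools overlapped both other groups. The log2 fold change was -0.44 ± 0.098 in XBP1ΔDC and -0.23 ± 0.11 in XBP1ΔDCIRE1truncDC against control, and 0.20 ± 0.11 between the mutants. Slc38a10 lies on chromosome 11, 13.6 Mb from Ern1, which is floxed in control replicate 4 and in the XBP1ΔDCIRE1truncDC mice and not in XBP1ΔDC mice. That control replicate had the highest Slc38a10 level of the 11 pools.

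The related glutamine carriers overlapped between genotypes. Slc38a1 (SNAT1) was at 120.4 to 155.1 CPM in control, 118.3 to 137.8 CPM in XBP1ΔDC and 120.7 to 147.2 CPM in XBP1ΔDCIRE1truncDC pools. Slc38a2 (SNAT2), the member of the family known to be induced by amino acid shortage, was at 187.8 to 315.6, 217.4 to 305.9 and 236.5 to 318.3 CPM. For Slc38a1 the log2 fold changes were -0.093 ± 0.095 and 0.030 ± 0.10 against control in XBP1ΔDC and XBP1ΔDCIRE1truncDC. For Slc38a2 they were 0.051 ± 0.16 and 0.13 ± 0.17, and the sign turned to -0.057 in XBP1ΔDC without control replicate 4 and to -0.011 in XBP1ΔDCIRE1truncDC without its replicate 3.

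**Figure D2:**
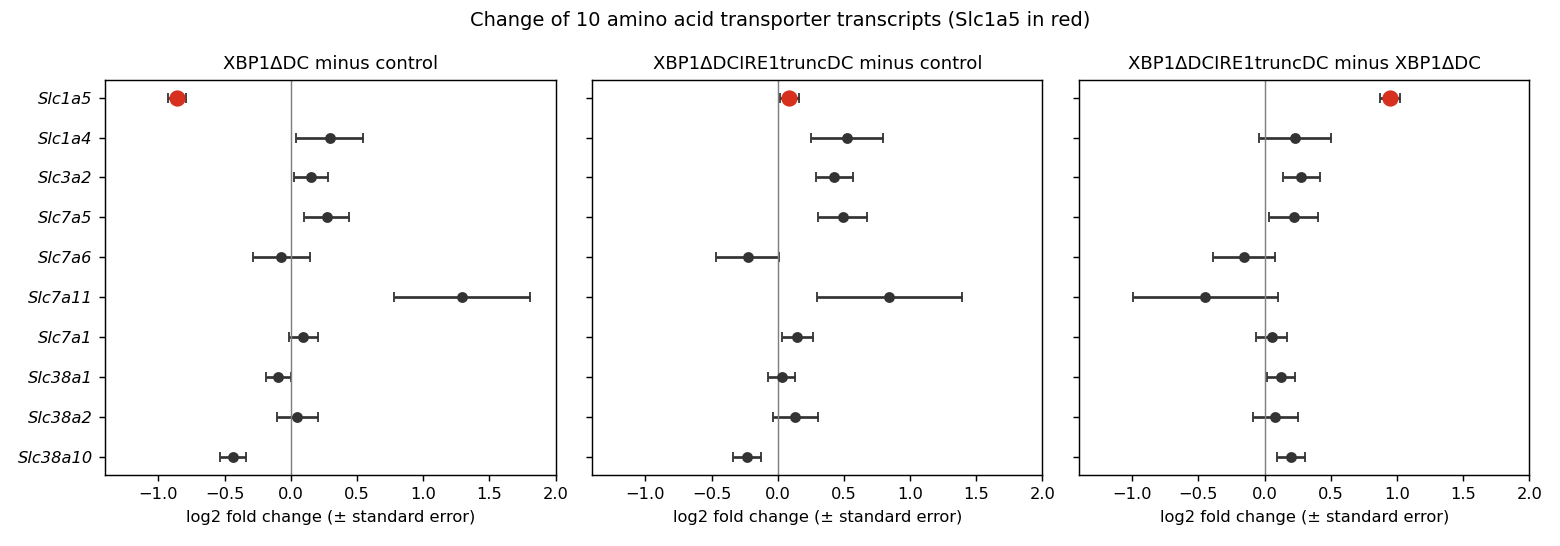
Log2 fold change (horizontal axis, ± SE) of the 10 transporters in the 3 comparisons of genotypes (panels). Slc1a5 (red) stands at -0.86 and 0.95 in the left and right panels and near 0 in the middle one, while Slc3a2, Slc7a5, Slc1a4 and Slc7a11 lie to the right of 0 in both comparisons with control.

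The heavy chain Slc3a2 was highest in the XBP1ΔDCIRE1truncDC pools. It was at 326.6, 263.7, 264.5 and 203.4 CPM in control and 326.0, 304.9, 244.9 and 300.5 CPM in XBP1ΔDC. It was at 333.6, 346.0 and 388.6 CPM in XBP1ΔDCIRE1truncDC, above every pool of both other groups, which overlapped each other. The log2 fold change of XBP1ΔDCIRE1truncDC was 0.43 ± 0.14 against control and 0.28 ± 0.14 against XBP1ΔDC, and that of XBP1ΔDC against control was 0.15 ± 0.13. Without control replicate 4, the lowest pool, the first of these was 0.32 and the last 0.045.

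Slc7a5 (LAT1), the light chain that exchanges glutamine against leucine and other large neutral amino acids, was at 171.2, 140.1, 120.4 and 99.4 CPM in control. It was at 160.2, 174.2, 166.4 and 140.7 CPM in XBP1ΔDC, and at 151.9, 243.8 and 164.2 CPM in XBP1ΔDCIRE1truncDC. All groups overlapped, and replicate 2 of XBP1ΔDCIRE1truncDC stood above the other 10 pools. The log2 fold changes were 0.27 ± 0.17 and 0.49 ± 0.18 against control in XBP1ΔDC and XBP1ΔDCIRE1truncDC, and the second was 0.25 without that replicate, while the first was 0.16 without control replicate 4. Slc7a5 was the main measured light chain partner: per kilobase it made up 50.5 to 72.1% of the sum of Slc7a5, Slc7a6, Slc7a7, Slc7a8 and Slc7a11 over all pools, and Slc3a2 exceeded that sum 1.75- to 2.66-fold in all 11 pools.

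Slc7a6, a light chain for cationic and neutral amino acids, was at 13.1 to 15.8 CPM in control, 10.5 to 20.5 CPM in XBP1ΔDC and 9.62 to 16.8 CPM in XBP1ΔDCIRE1truncDC, with overlapping pools and log2 fold changes of -0.071 ± 0.22 and -0.23 ± 0.24 against control. Slc7a11 (xCT), the light chain that imports cystine in exchange for glutamate, was the least abundant member. It was at 1.82, 2.85, 2.11 and 1.74 CPM in control, 6.11, 6.68, 1.03 and 7.14 CPM in XBP1ΔDC and 5.16, 1.72 and 4.61 CPM in XBP1ΔDCIRE1truncDC. In all, 3 of 4 XBP1ΔDC pools and 2 of 3 XBP1ΔDCIRE1truncDC pools lay above all control pools, and the remaining pool of each group lay below all control pools. The log2 fold changes were 1.29 ± 0.51 and 0.84 ± 0.55 against control and -0.45 ± 0.55 between the mutants, on 27 to 184 reads per pool, and the spread between pools was wide for this gene.

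Slc1a4 (ASCT1), the other neutral amino acid exchanger of the SLC1 family, did not lie lower in XBP1ΔDC. It was at 15.1, 12.2, 15.8 and 8.35 CPM in control, 15.0, 21.4, 10.9 and 15.8 CPM in XBP1ΔDC and 14.5, 25.2 and 15.8 CPM in XBP1ΔDCIRE1truncDC. The groups overlapped, with the lowest value in control replicate 4 and the highest in XBP1ΔDCIRE1truncDC replicate 2. The log2 fold changes were 0.29 ± 0.25 and 0.52 ± 0.27 against control, and the second was 0.24 without that highest pool, while the first was 0.11 without XBP1ΔDC replicate 2. Slc7a1 (CAT1), the arginine and lysine carrier, was at 33.9 to 42.9, 38.6 to 46.9 and 38.9 to 49.2 CPM in the 3 groups, which overlapped, with log2 fold changes of 0.096 ± 0.11 and 0.15 ± 0.12 against control.

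Promoter windows of 300 bases (250 before to 50 after the annotated start, RefSeq, GRCm38.p6) were available for 7 of the 10 transporters. Slc1a5, Slc7a5 and Slc38a1 had no window, so their promoters were not searched. The available windows were searched on both strands for TGATGNAA (reverse complement TTNCATCA), the core of the element bound by ATF4 with C/EBP proteins. Slc7a11 had a match at -66 to -59 on the strand of the gene and at -47 to -40 on the opposite strand, counted from the start, and Slc1a4 had 1 at -4 to 4 on the opposite strand. The windows of these 2 transporters and that of Asns, an ATF4 target with a match at -23 to -16, are printed because they hold the element. The window of Slc3a2 is printed as a transporter without a match. Each is 5′ to 3′ on the strand of its gene, with matches in capitals:
Slc7a11 (chr3:50443564-50443863, minus strand): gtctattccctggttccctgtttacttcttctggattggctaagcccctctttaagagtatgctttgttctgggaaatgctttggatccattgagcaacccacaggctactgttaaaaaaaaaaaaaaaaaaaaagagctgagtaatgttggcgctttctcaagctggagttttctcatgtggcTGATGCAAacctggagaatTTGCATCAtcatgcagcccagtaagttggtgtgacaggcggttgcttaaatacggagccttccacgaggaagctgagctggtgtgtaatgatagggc
Slc1a4 (chr11:20332664-20332963, minus strand): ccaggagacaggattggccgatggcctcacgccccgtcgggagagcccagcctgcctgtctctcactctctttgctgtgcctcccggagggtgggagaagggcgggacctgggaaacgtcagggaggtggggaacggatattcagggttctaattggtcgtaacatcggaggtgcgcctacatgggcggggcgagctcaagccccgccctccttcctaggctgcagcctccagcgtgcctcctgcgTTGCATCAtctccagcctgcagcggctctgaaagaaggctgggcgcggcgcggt
Slc3a2 (chr19:8713848-8714147, minus strand): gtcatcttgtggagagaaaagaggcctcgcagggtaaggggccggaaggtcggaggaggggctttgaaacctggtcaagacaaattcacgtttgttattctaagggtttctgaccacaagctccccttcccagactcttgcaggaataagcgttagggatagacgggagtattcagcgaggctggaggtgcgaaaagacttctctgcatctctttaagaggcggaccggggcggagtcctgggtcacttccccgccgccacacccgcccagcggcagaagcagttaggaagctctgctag
Asns (chr6:7693160-7693459, minus strand): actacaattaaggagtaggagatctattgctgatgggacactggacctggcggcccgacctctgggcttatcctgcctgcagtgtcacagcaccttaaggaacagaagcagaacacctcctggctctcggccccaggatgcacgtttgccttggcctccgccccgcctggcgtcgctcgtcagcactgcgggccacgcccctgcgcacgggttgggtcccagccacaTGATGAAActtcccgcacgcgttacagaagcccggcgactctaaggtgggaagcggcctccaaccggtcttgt
The windows of Slc3a2, Slc7a1, Slc7a6, Slc38a2 and Slc38a10 did not contain these letters, and sequence outside the windows was not searched. Among all windows, 3.97% of 32851 held a match, as did 2.8% of the 8472 tested genes with a window, and 12 of the 29 ATF4-list genes with a window did. A match is a description of the letters and not a measured binding site.

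In control pools, Slc3a2 was the most abundant of the 10 transporters per kilobase of transcript and Slc1a5 the second. The mean level was 145 ± 27.6 CPM per kb (SD, n = 4) for Slc3a2 and 70.5 ± 4.57 for Slc1a5. They were followed by Slc38a2 at 52.5, Slc7a5 at 37.8, Slc38a10 at 34.5 and Slc38a1 at 18.6 CPM per kb. The low group held Slc7a1 at 5.43, Slc7a6 at 3.98, Slc1a4 at 3.28 and Slc7a11 at 0.231 CPM per kb. Pools of neighbours in this order overlapped for Slc1a5 and Slc38a2, Slc38a2 and Slc7a5, Slc7a5 and Slc38a10, and Slc7a6 and Slc1a4, and did not overlap for the other neighbours. In XBP1ΔDC pools Slc1a5 (38.9 ± 1.65 CPM per kb) ranked 4, after Slc38a2 (54.4) and Slc7a5 (45.6). In XBP1ΔDCIRE1truncDC pools it ranked 2 again, at 75.0 ± 2.54 CPM per kb (n = 3).

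**Figure D3:**
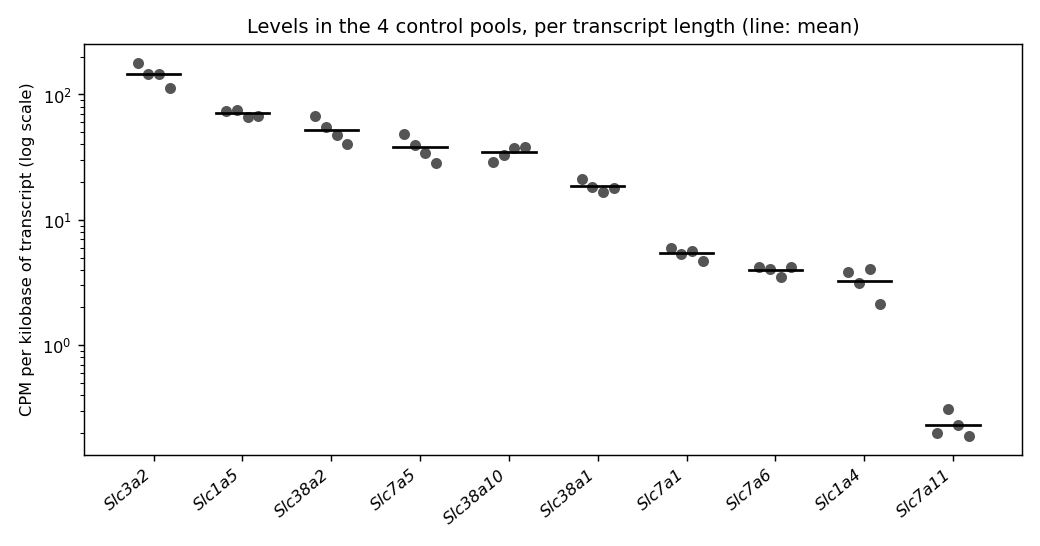
CPM per kilobase of transcript (vertical axis, log scale) of the 10 transporters (horizontal axis, ordered by mean) in the 4 control pools (points; line, mean). The means run from 145 for Slc3a2 to 0.231 for Slc7a11, and the pools of Slc1a5 overlap those of Slc38a2.

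Across the whole table, 94 genes were lower and 4 higher in XBP1ΔDC than in control at an adjusted p under 0.05 (edgeR), which is 0.858% and 0.0365% of the genes tested. Of the 10 transporters, 1 was among the lower genes (Slc1a5) and 0 among the higher genes. Pools did not overlap, with XBP1ΔDC lower, for 2 of 10 (3.67% of all genes), and with XBP1ΔDC higher for 0 of 10 (1.63%). Between XBP1ΔDCIRE1truncDC and control, 0.292% of genes were lower and 0.0639% higher, with 0 of 10 transporters in either set by edgeR, DESeq2 or limma voom. At an unadjusted p under 0.05, 2 transporters were higher and 1 lower in that comparison by edgeR, beside 5.73% and 5.44% of all genes. Pools lay higher without overlap for 1 of 10, Slc3a2 (4.31%). Between XBP1ΔDCIRE1truncDC and XBP1ΔDC, 0.0731% of genes were higher, Slc1a5 among them, and pools lay higher without overlap for Slc1a5 and Slc3a2 (3.11%). Since the members were chosen with these comparisons in view, nothing is read from their counts.

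Among the other plasma membrane amino acid transporters no gene passed the test. Of 34 genes, 7 were expressed highly enough to be tested, and 0 passed an adjusted p of 0.05 in any comparison with edgeR. The 3 most abundant were Slc6a6, the taurine carrier, at 278.4 to 339.1 CPM in control pools, and the Slc3a2 partner Slc7a8 at 40.7 to 48.3 and the leucine carrier Slc43a2 at 31.9 to 39.0 CPM. Their log2 fold changes in XBP1ΔDC against control were 0.11 ± 0.082, -0.16 ± 0.11 and -0.093 ± 0.14 (adjusted p = 0.89, 0.85 and 0.96, edgeR). Pools of XBP1ΔDC lay below control without overlap for 1 of the 7 (3.67% of all genes) and above it for 2 (1.63%). The lower gene was Slc38a6, at 2.33 to 3.31 CPM in control and 0.960 to 1.91 CPM in XBP1ΔDC (-0.86 ± 0.43, adjusted p = 0.72, edgeR). In XBP1ΔDCIRE1truncDC it overlapped control, at 0.978 to 3.71 CPM. The glycine transporter Slc6a9 had the largest fold changes and the only unadjusted p under 0.05 of the list, in both comparisons with control. It was at 2.08, 3.41, 4.56 and 0.759 CPM in control, 16.5, 7.27, 12.02 and 7.37 CPM in XBP1ΔDC and 11.3, 24.2 and 10.4 CPM in XBP1ΔDCIRE1truncDC. All mutant pools lay above all control pools, at log2 fold changes of 1.99 ± 0.47 (adjusted p = 0.090, edgeR) and 2.49 ± 0.50 (adjusted p = 0.056). Over the alternatives these adjusted p-values ran from 0.00087 to 0.29 and from 7.0e-05 to 0.16, with DESeq2 calling Slc6a9 in both comparisons and limma voom in neither. Between the mutants the difference was 0.50 ± 0.47 (adjusted p = 0.97), and the list had 0 calls by any of the 3 tools.

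The transporters of lysosomes and mitochondria also showed no call: of 20 genes 16 were tested, and 0 passed in any comparison with edgeR, DESeq2 or limma voom. The 3 most abundant were the mitochondrial carriers Slc25a12 (aspartate and glutamate), Sfxn1 (serine) and Slc25a38 (glycine), whose log2 fold changes in XBP1ΔDC against control were -0.013 ± 0.10, -0.063 ± 0.083 and -0.0024 ± 0.11 (adjusted p = 0.99, 0.96 and 0.999, edgeR). At an unadjusted p under 0.05 edgeR gave 1 gene higher in XBP1ΔDC against control (2.67% of all genes), the lysosomal cationic amino acid exporter Pqlc2 (0.35 ± 0.14, adjusted p = 0.52). It gave 0 in XBP1ΔDCIRE1truncDC against control, and 1 lower in XBP1ΔDCIRE1truncDC against XBP1ΔDC (2.5% of all genes), the lysosomal histidine carrier Slc15a4 (-0.36 ± 0.14, adjusted p = 0.90). The median log2 fold change of the list was 0.076, -0.075 and -0.070 in the 3 comparisons, beside 0.0050, -0.0031 and 0.0015 over all genes.

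**Figure D4:**
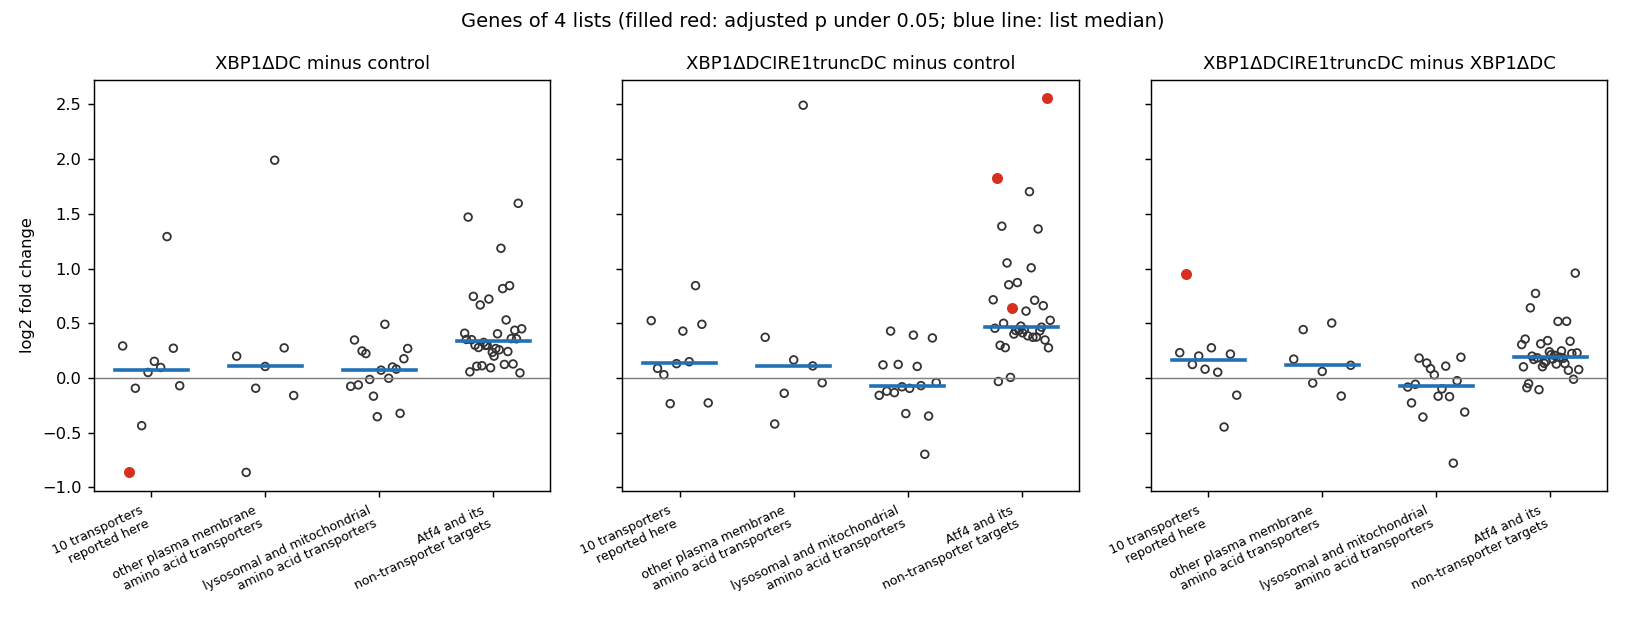
Log2 fold change (vertical axis) of the 10 transporters, 7 other plasma membrane transporters, 16 lysosomal and mitochondrial transporters and 34 ATF4-list genes (columns; points, genes; blue line, median) in the 3 comparisons (panels). ATF4-list genes except Atf3 in the middle panel lie above 0 against control, with medians of 0.34 and 0.47, while Slc1a5 is the lowest of the 10 transporters in the left panel and the highest in the right one.

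ATF4 and its targets other than transporters had fold changes above 0 in both mutant genotypes against control, except Atf3 in XBP1ΔDCIRE1truncDC (-0.032), the opposite sign to Slc1a5 in XBP1ΔDC. How many passed the test gene by gene differed between tools. Of 39 genes 34 were tested, and the log2 fold change in XBP1ΔDC against control was above 0 for 34 of 34, with a median of 0.34 beside 0.0050 over all genes. By edgeR 0 passed an adjusted p of 0.05 while 19 reached an unadjusted p below 0.05, all higher (2.67% of all genes). Pools lay above control without overlap for 17 (1.63% of all genes). DESeq2 called 6 of the list, beside 181 genes called in either direction over the whole table, and limma voom called 0 of the list. In XBP1ΔDCIRE1truncDC against control the change was above 0 for 33 of 34, with a median of 0.47. By edgeR 3 passed (0.0639% of all genes higher), Trib3 (2.55 ± 0.46, adjusted p = 0.040), Asns (1.83 ± 0.33, adjusted p = 0.040) and Eif4ebp1 (0.64 ± 0.11, adjusted p = 0.031), and 29 reached an unadjusted p below 0.05, all higher (5.73% of all genes). DESeq2 called 16 of the list there, beside 199 genes called in either direction over the whole table, where edgeR called 39. Of the list, limma voom called 1, Eif4ebp1, so that Trib3 and Asns were not called by it. Over the alternatives the adjusted p ran from 7.35e-06 to 0.21 for Trib3, from 1.8e-05 to 0.13 for Asns and from 9.8e-05 to 0.13 for Eif4ebp1. The same 4 control pools enter both comparisons. Between the mutants the median was 0.19, 0 passed by edgeR, DESeq2 or limma voom, and 4 genes reached an unadjusted p below 0.05, all higher by edgeR (2.79% of all genes).

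Asns and Trib3 varied more between pools of a group than Slc1a5, with coefficients of variation of 16.05 to 48.1% and 15.3 to 88.3%. Asns, asparagine synthetase, was at 7.25, 8.66, 10.4 and 3.57 CPM in control, 25.05, 20.7, 20.3 and 16.9 CPM in XBP1ΔDC and 18.7, 41.3 and 19.7 CPM in XBP1ΔDCIRE1truncDC, so that all mutant pools lay above all control pools. Its change in XBP1ΔDC was 1.47 ± 0.32 (adjusted p = 0.052, edgeR). Trib3, a pseudokinase that restrains ATF4, was at 1.79 to 3.56, 6.99 to 9.60 and 7.61 to 32.2 CPM in the 3 groups. Atf4 itself differed by 0.35 ± 0.10 in XBP1ΔDC (adjusted p = 0.24) and by 0.30 ± 0.11 in XBP1ΔDCIRE1truncDC (adjusted p = 0.32), and Ddit3, the stress factor CHOP, by 0.67 ± 0.18 (adjusted p = 0.18) and 0.85 ± 0.19 (adjusted p = 0.10). Psat1, an enzyme of serine synthesis, differed by 0.53 ± 0.23 and 0.71 ± 0.25 (adjusted p = 0.62 and 0.30), and Chac1, which degrades glutathione, by 0.28 ± 0.27 and 1.05 ± 0.29 (adjusted p = 0.94 and 0.18).

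A pair of pools weighed on the ATF4-list values. XBP1ΔDCIRE1truncDC replicate 2 was the highest of the 11 pools for 28 of 34 genes of the list and for 3 of the 10 transporters (Slc1a4, Slc7a1 and Slc7a5). It was the highest for 1 of the 7 other plasma membrane transporters and for 0 of the 16 lysosomal and mitochondrial ones. The same pool had the lowest macrophage and monocyte marker sum of the 11, 441.3 CPM beside 996.9 and 1174 CPM in the other pools of its group, and the part of this in the ATF4-list values was not tested. Control replicate 4, the only control from mice with floxed Ern1, was the lowest pool for 22 of 34 and for 5 of the 10 transporters. It was the lowest for 3 of the 7 other plasma membrane transporters and 3 of the 16 lysosomal and mitochondrial ones. How often these 2 pools were the extreme ones over all genes tested was not counted, so their counts are not shown to be particular to the ATF4 list. Without XBP1ΔDCIRE1truncDC replicate 2, the list median was 0.34 in both comparisons with control and -0.0088 between the mutants, and 0 genes passed in XBP1ΔDCIRE1truncDC and 5 in XBP1ΔDC (Asns, Phgdh, Shmt2, Trib3 and Sars). Without control replicate 4 the medians were 0.29 and 0.45, and 0 genes passed in either comparison. The count of 3 in XBP1ΔDCIRE1truncDC also became 0 without control replicate 1 or XBP1ΔDC replicate 1 or 4. It became 1 without control replicate 2 (Eif4ebp1) or 3 (Asns) or XBP1ΔDC replicate 2 (Eif4ebp1) or 3 (Chac1, not called in the main fit). All of these pools enter the shared estimate of the spread. Without XBP1ΔDCIRE1truncDC replicate 1 or 3 the count stayed 3 but the genes changed, to Mthfd2, Trib3 and Eif4ebp1 and to Shmt2, Trib3 and Eprs. Slc1a5 was at 205.5 CPM in XBP1ΔDCIRE1truncDC replicate 2 and 184.5 CPM in control replicate 4, within the range of their own groups.

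**Figure D5:**
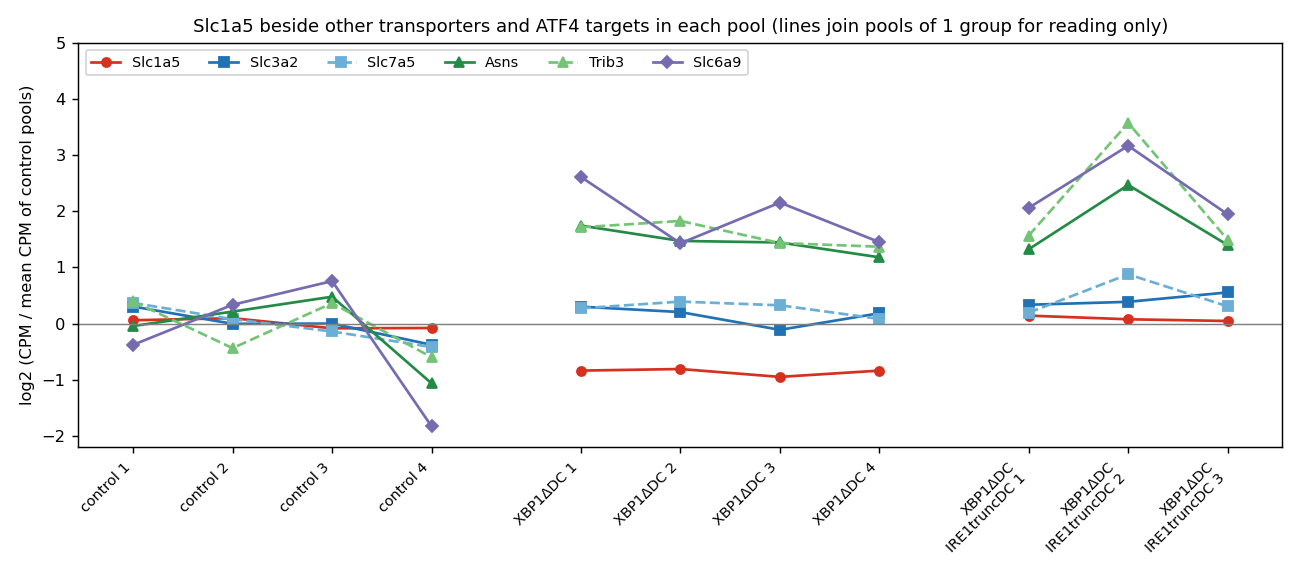
Log2 of the CPM over the mean of the control pools (vertical axis) in each of the 11 pools (horizontal axis) for Slc1a5, Slc3a2, Slc7a5, Slc6a9 and the ATF4 targets Asns and Trib3; lines join pools of 1 genotype for reading only. Slc1a5 lies low in the 4 XBP1ΔDC pools and near 0 elsewhere, whereas Asns, Trib3 and Slc6a9 lie above 0 in all 7 pools with Cre.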

How the data were processed

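Conventional type 1 dendritic cells were sorted by the authors from pooled B16 tumors, amplified with SMART-seq v4 and sequenced single-end. Per the labels and the study's methods, the authors trimmed reads with Trimmomatic 0.39, checked them with FastQC 0.11.8, mapped them to mouse genome mm10 with STAR 2.7.3a and counted reads per gene with HTSeqCount. The annotation they used is not given in the sources used here. The deposited raw counts per gene (24421 genes, 11 pools) were used; the deposited table of normalized log2 values (limma 3.42.2) was not used here. Amplified reads are not independent molecules, so depth, 21089065 to 26843486 counts per pool, gives the counting precision only.

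Genes with CPM above 1 in at least 4 pools (10951) were fitted with edgeR 4.0.16 (R 4.3.3): TMM normalization, quasi-likelihood test, all 11 pools and 3 genotypes in 1 model, Benjamini-Hochberg adjustment over all genes tested, threshold 0.05. Fold changes are on the log2 scale and the SE is the fold change divided by the square root of the F statistic. CPM are on TMM library sizes, and CPM per kb use the length of 1 transcript per gene of GENCODE vM21. The script was tested on simulated data. The members, gene lists and tests were chosen with earlier results of these data known, and the transporters were selected on their values in these comparisons. Named genes were the 10 transporters, Xbp1 and Ern1, preset ATF4-list genes and the genes of each other list that passed or had the smallest p. Also named were the 3 most abundant genes of the other transporters and the 5 genes nearest to Slc1a5. Slc38a6, Ap2s1, Phgdh, Shmt2, Sars and Atf3 were named after their values were seen. Labels do not say that same-numbered pools share a litter or day. Deviations from group means correlated at 0.098 (range 0.042 to 0.13) between same-numbered control and XBP1ΔDC pools, at 0.0035 between control and XBP1ΔDCIRE1truncDC and at -0.22 between the mutants, so the number was not used as a block in the reported fit. Pools are separate samples per the labels, and p-values measure the spread between them. Alternatives were RLE size factors, library size only, no or another filter, DESeq2 1.42.0, limma voom (limma 3.58.1), the replicate block, only the 2 groups compared, and each pool left out.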

Additional observations from a re-analysis of the deposited data

Results flagged for a closer look

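Chance sets apart about 1 in 20 groups by the test for a single distant pool (Dixon's test at 95%), and 3 of 52 groups of 4 pools examined were set apart. Slc7a11 in XBP1ΔDC replicate 3 was at 1.03 CPM, while the other XBP1ΔDC pools were at 6.11 to 7.14 CPM. Leaving that pool out, the change from control was 1.64 in place of 1.29 on the log2 scale. Slc7a7, a light chain that exports cationic amino acids, was at 46.7 CPM in XBP1ΔDC replicate 2, while the other pools of that group were at 35.3 to 36.7 CPM. Sfxn1, the mitochondrial serine transporter, was at 87.5 CPM in XBP1ΔDC replicate 3, below 99.4 to 101.1 CPM in the other XBP1ΔDC pools. Slc1a5 differed between the mutant genotypes by 0.95 on the log2 scale (XBP1ΔDCIRE1truncDC against XBP1ΔDC, the difference between their effects against the shared controls); the gene was chosen for this difference, so it carries no test.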

How the results depend on the processing

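The log2 fold changes of Slc1a5 moved by less than the spread between pools under all 19 alternatives in each comparison. Those of the 9 other transporters did so in 513 of 513 values, among them several near 0 that changed sign. Leaving out 1 pool can seldom move a group mean by that much, so these counts do not show that a value is stable. For example, Slc7a5 in XBP1ΔDCIRE1truncDC against control went from 0.49 to 0.25 without replicate 2 of XBP1ΔDCIRE1truncDC. In XBP1ΔDC against control, the count of genes passing (98) was 181 with DESeq2 and 59 with the replicate block, and 60 to 109 with 1 pool left out, with 60 to 64 without control replicate 1 or 2 or XBP1ΔDC replicate 1 or 4. The ATF4-list count (0) was 1 without a filter, 6 with DESeq2, 4 with only the 2 groups compared and 0 to 5 with 1 pool left out. The count of the 10 transporters (1) was 2 with DESeq2, which added Slc38a10, and 1 to 2 with 1 pool left out (2 without control replicate 1, again with Slc38a10), and that of the other plasma membrane transporters (0) was 1 with DESeq2. In XBP1ΔDCIRE1truncDC against control, genes passing (39) were 199 with DESeq2, 12 with the replicate block, 22 with only the 2 groups compared and 17 to 33 with 1 pool left out, with 17 to 22 without control replicate 1 or 2 or XBP1ΔDCIRE1truncDC replicate 1 or 3. The ATF4-list count (3) was 5 with library size only, 16 with DESeq2, 1 with limma voom, 0 with the replicate block, 0 with only the 2 groups compared and 0 to 3 with 1 pool left out; the other plasma membrane count (0) was 1 without a filter and 1 with DESeq2. Between the mutants, genes passing (8) were 59 with DESeq2, 3 with the replicate block and 4 to 11 with 1 pool left out, with 4 or 5 without control replicate 1 or 2, XBP1ΔDC replicate 1, 3 or 4, or XBP1ΔDCIRE1truncDC replicate 1 or 3. The cause of these moves was not tested; fits without a pool have fewer samples. Replicate numbers in the labels are not shown to pair the pools, so the block is given here only. Among the 10 transporters, depth limited Slc7a11 most, at 27 to 184 reads per pool.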
